A study of Mus musculus with 33 samples.

Results

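The 9 genes described here encode receptors that restrain T cells when they are engaged, together with an enzyme and a transcription factor of the same programme. They are Pdcd1, Ctla4, Tigit, Havcr2, Lag3, Cd160, Cd244, Entpd1 and Tox. They were taken by symbol from both deposited count tables, where they are 9 of 18054 gene rows in the first experiment and 9 of 18052 in the second, and all 9 passed the filter on low counts in both. RNA of CD8 T cells sorted live from mouse skin was sequenced with CEL-seq2, a 3' tag method, in 33 libraries of 16 sorted sets. The mice had contact allergy to dinitrofluorobenzene (DNFB), and the study followed resident memory T cells (TRM), which stay in the skin, under TA (0.01%), the topical corticosteroid treatment, or acetone. The first experiment used Nur77GFP mice, in which GFP follows activity of Nr4a1 and so T cell receptor (TCR) signalling, and every library held CD69+CD103+ cells. Cells were taken at day 0, before the retest with DNFB (all GFP-negative; 2 TA and 3 acetone libraries), day 1 or 24 hours later (GFP-positive and GFP-negative, 2 TA and 2 acetone libraries each) and day 6 or 144 hours later (GFP-negative; 2 TA and 2 acetone). The second used C57BL/6 mice with 2 libraries a set. Its days are counted from DNFB. Its day 2 cells, taken after DNFB and labelled as given no treatment, were split into 4 subsets by their CD69 and CD103. Its later TRM, all CD69+CD103+, came from day 11 or day 42 after DNFB, with TA or acetone as treatment.

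Checkpoint receptors are surface proteins that T cells acquire after antigen encounter, and in chronic stimulation several of them accumulate on the same cell. PD-1, encoded by Pdcd1, recruits phosphatases to the TCR and CD28, while CTLA-4 takes the ligands CD80 and CD86 away from CD28. In skin TRM such receptors are known as a restraint on cells that sit ready to respond to an allergen or microbe.

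The table headers carry codes, and only some codes have a single reading in the labels. Known are day 0 acetone, the GFP state of each day 1 library and day 2 CD69+CD103+. Arm I and arm II name the day 1 treatment groups, and the headers do not state which received TA. Sets K, L and M are day 0 TA and the pair of day 6 groups in unknown order, sets U, V and W the other day 2 subsets, and sets P, Q, R and S the day 11 and day 42 groups. Libraries held 2442825 to 8515297 counts in the first experiment and 2937814 to 13629838 in the second. Mitochondrial transcripts took 29.3 to 36.7% of counts in arm II and 22.4 to 28.6% in arm I. The labels do not say whether replicates are separate animals; the p-values therefore reflect the spread among these libraries alone, which may be technical. Levels are CPM (counts scaled to a common library total), and a gene was called at an adjusted p under 0.05 in the quasi-likelihood F test of edgeR, adjusted by Benjamini-Hochberg over all genes tested. Cd8a was present in every library, at 450 CPM or more, and Cd4 did not exceed 2.72 CPM. Nr4a1 followed the GFP sort, at 3317 to 4433 CPM in GFP-positive and 814 to 1343 CPM in GFP-negative day 1 libraries. The eGFP transcript itself stood at 9.70 and 17.9 CPM in GFP-positive against 1.47 and 5.79 CPM in GFP-negative cells of arm I. In arm II it stood at 5.21 and 9.33 CPM in GFP-positive against 9.92 and 11.1 CPM in GFP-negative cells, an order that goes against the sort label.

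At day 1 the receptor genes Cd160 and Havcr2 were higher in GFP-positive than in GFP-negative TRM, in each arm and over both. Cd160 encodes a lipid-anchored receptor of the immunoglobulin family that binds HVEM (Tnfrsf14). It lies on chromosome 3, 96798763 to 96829351, minus strand (GRCm38), and its 5' end overlaps the start of Pdzk1 on the other strand. Havcr2 encodes TIM-3, a receptor for galectin-9 and other ligands, and lies on chromosome 11, 46454935 to 46481255, plus strand.

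The 250 bases before the annotated starts of both genes are shown because these members moved together with the GFP sort. The sequences are from RefSeq (GRCm38.p6), 5' to 3' on the gene's strand, and capitals mark the letters GGAAA or their complement TTTCC, the core bound by NFAT factors, and TGANTCA, the element bound by AP-1.
Cd160, first start, chr3:96829352-96829601, minus strand: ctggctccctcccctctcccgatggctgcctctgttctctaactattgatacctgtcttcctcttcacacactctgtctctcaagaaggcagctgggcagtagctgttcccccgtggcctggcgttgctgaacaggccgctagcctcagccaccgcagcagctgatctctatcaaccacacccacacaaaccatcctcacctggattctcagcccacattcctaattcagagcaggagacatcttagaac
Cd160, second start, chr3:96814522-96814771, minus strand: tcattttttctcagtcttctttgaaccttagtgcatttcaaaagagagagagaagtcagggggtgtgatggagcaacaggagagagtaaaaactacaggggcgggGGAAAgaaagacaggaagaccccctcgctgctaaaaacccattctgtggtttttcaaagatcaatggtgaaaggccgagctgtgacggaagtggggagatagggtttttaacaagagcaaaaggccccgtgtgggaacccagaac
Havcr2, chr11:46454681-46454930, plus strand: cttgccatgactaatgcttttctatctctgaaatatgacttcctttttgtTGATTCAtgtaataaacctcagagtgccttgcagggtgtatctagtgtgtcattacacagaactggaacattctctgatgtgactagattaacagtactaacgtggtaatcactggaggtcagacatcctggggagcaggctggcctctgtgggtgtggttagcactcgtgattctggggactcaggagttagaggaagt
On either strand, GGAAA was found once before the second Cd160 start and not in the other 2 windows, and TGANTCA once before Havcr2. Of 32851 windows of the same length in the table, 55.6% hold GGAAA and 6.75% hold TGANTCA. These are matches of letters, not shown sites.

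Cd160 stood at 107 and 127 CPM in arm II GFP-positive libraries and at 101 and 108 CPM in arm I GFP-positive libraries. In GFP-negative libraries it stood at 11.5 and 3.57 CPM in arm II and at 2.76 and 2.23 CPM in arm I. All 4 GFP-positive libraries were above all 4 GFP-negative libraries, and the groups did not overlap. The log2 difference over both arms was 4.80 ± 0.53 (SE; edgeR adjusted p = 6.60e-06), with 5.55 ± 0.77 in arm I and 4.06 ± 0.73 in arm II. CD160 is also made by NK cells, of whose 4 markers 2 have rows. These summed to 2.45 to 4.11 CPM in arm II and 0 to 0.636 CPM in arm I GFP-positive libraries, and to 30.6 to 44.6 CPM in arm II and 0.551 to 2.08 CPM in arm I GFP-negative libraries. Klrb1c made up the whole sum in GFP-negative libraries. It was at 0 in arm I GFP-positive libraries, where the only counts were of the other gene. The part of NK cells in the Cd160 values of either arm was not tested.

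Havcr2 stood at 542 and 548 CPM in arm II and at 464 and 344 CPM in arm I in GFP-positive libraries. In GFP-negative libraries it stood at 187 and 256 CPM in arm II and at 257 and 246 CPM in arm I. The groups did not overlap, and the lowest GFP-positive library was an arm I one. The log2 difference was 1.12 ± 0.17 over both arms (edgeR adjusted p = 0.000112), 0.84 ± 0.24 in arm I and 1.40 ± 0.24 in arm II. The arm I call rested on single libraries: without 3 of its 4 libraries in turn (both GFP-negative ones and GFP-positive A) it was lost, with a log2 difference of at least 0.66. TIM-3 is also made by phagocytes, of whose 16 markers 15 have rows; these summed to 729 to 886 CPM in GFP-positive and 900 to 934 CPM in GFP-negative arm I libraries, and to 331 to 378 and 50.8 to 85.7 CPM in those of arm II. Over both arms 4 of 13 phagocyte markers tested were higher in GFP-positive cells and none lower, C1qb among them at 23.3 against 1.57 CPM. The part of phagocytes in the Havcr2 difference was not tested. In bulk RNA, fewer cells of a type and less RNA per cell cannot be told apart.

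Pdcd1 (chromosome 1, 94038305 to 94052553, minus strand) exceeded its GFP-negative level in GFP-positive cells by log2 0.63 ± 0.20 over both arms, with an edgeR adjusted p of 0.0452. It stood at 225 and 243 CPM in arm II and 95.5 and 92.5 CPM in arm I in GFP-positive libraries, and at 167 and 185 CPM in arm II and 34.9 and 91.8 CPM in arm I in GFP-negative libraries. Within each arm the GFP states did not overlap, but arm II GFP-negative libraries were above arm I GFP-positive ones. The difference was not called in arm I (0.75 ± 0.28, edgeR adjusted p = 0.165) or in arm II (0.51 ± 0.28, edgeR adjusted p = 0.303). Leaving out a library ended the call over both arms in 7 of 8 cases, the exception being arm I GFP-negative B.

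Of the 9 genes these 3 were called higher and none lower over both arms, while 12.1% of all 11588 genes tested were called (5.59% higher). In arm I 2 were called, against 5.36% of all genes, and in arm II 2, against 8.07%. The median log2 difference of the 9 was 0.90, and it was -0.03 over all genes tested. Placing Entpd1 at its bound leaves that median at 0.90.

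The other 6 did not pass the test. Ctla4 (chromosome 1, 60887000 to 60915832, plus strand) averaged 27.6 ± 11.6 CPM in GFP-positive and 20.3 ± 15.8 CPM in GFP-negative libraries (SD, n = 4 each), a log2 difference of 0.90 ± 0.45. Lag3, whose product binds MHC class II, differed by 1.52 ± 0.91 at 4.96 ± 3.98 against 1.68 ± 1.41 CPM. Tigit, a receptor for PVR, differed by 1.12 ± 0.72, and Cd244, the CD48 receptor 2B4, by 0.19 ± 0.54. Tox, a chromatin-binding factor that sustains the exhausted state in chronic infection, differed by -0.07 ± 0.36. Tox lies on chromosome 4, 6686353 to 6991557, minus strand. Entpd1 (chromosome 19, 40612366 to 40741602, plus strand) encodes CD39, which breaks down extracellular ATP. It was at 0 counts in both arm II GFP-positive libraries, where 3 counts over the set would be 0.505 CPM, and at 3.68 and 2.78 CPM in arm II GFP-negative libraries. The mean of the GFP-negative set was 6.40-fold above that bound, on 16 counts whose own error is not included. The edgeR fit did not call Entpd1 in that arm (adjusted p = 0.0883), while DESeq2 did (adjusted p = 0.0312). In arm I it stood at 3.05 and 2.38 CPM in GFP-positive and 1.10 and 1.04 CPM in GFP-negative libraries, the opposite order. No gene of the 9 was called for a difference between arms in the GFP difference, with 0.889% of all genes called. Entpd1 alone had an unadjusted p under 0.05 there (edgeR adjusted p = 0.222).

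**Figure D1:**
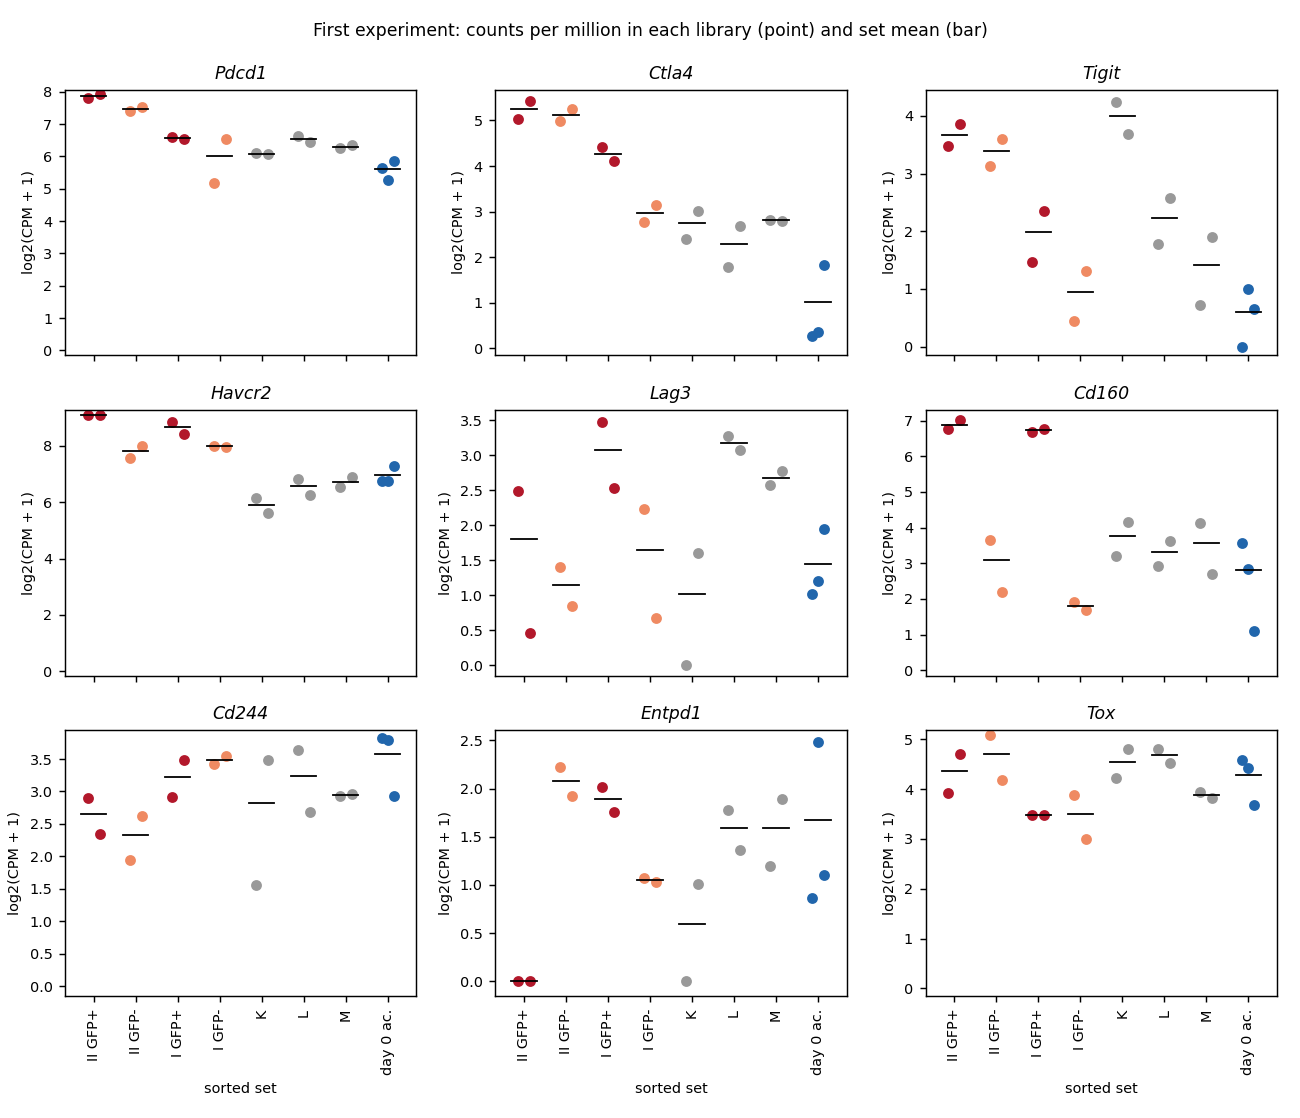
Level of each gene in every library of the first experiment, as log2(CPM + 1), by sorted set. Points are libraries and bars are set means (red, day 1 GFP-positive; orange, day 1 GFP-negative; grey, sets K, L and M; blue, day 0 acetone). Cd160 is high in the 4 GFP-positive libraries, at 101 CPM or more, and at 16.9 CPM or less in all others.

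The arms differed in Pdcd1 in both GFP states, and in Ctla4 in GFP-negative cells. The comparison of arms asks what TA changes at day 1, without saying in which arm it was given. In GFP-negative cells, Pdcd1 was higher in arm II, at 167 and 185 CPM, than in arm I, at 34.9 and 91.8 CPM. The log2 difference was 1.44 ± 0.29 (edgeR adjusted p = 0.00383), and it was lost without arm I GFP-negative A. In GFP-positive cells it was higher by 1.20 ± 0.29 (edgeR adjusted p = 0.0230), at 225 and 243 CPM in arm II against 95.5 and 92.5 CPM in arm I. Leaving out any of the 4 libraries ended that call, with the log2 difference between 1.09 and 1.27.

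Ctla4 stood at 30.7 and 36.9 CPM in arm II GFP-negative libraries, against 5.88 and 7.86 CPM in arm I ones. The sets did not overlap, and the log2 difference was 2.25 ± 0.66 (edgeR adjusted p = 0.0473), and leaving out any one of the 4 libraries ended the call. In GFP-positive cells Ctla4 stood at 31.9 and 41.8 CPM in arm II against 20.4 and 16.2 CPM in arm I (0.90 ± 0.63, not called). The letters GGAAA or TTTCC occur once in its window, shown for comparison with the genes above. The window lies inside the gene span given, which follows a longer GENCODE transcript.
Ctla4, chr1:60908775-60909024, plus strand: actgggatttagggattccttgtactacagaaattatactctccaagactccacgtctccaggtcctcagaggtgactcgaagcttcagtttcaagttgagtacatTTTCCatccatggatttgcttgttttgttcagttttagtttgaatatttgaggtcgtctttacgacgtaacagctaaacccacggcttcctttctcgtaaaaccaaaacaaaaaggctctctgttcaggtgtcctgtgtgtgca

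Pdcd1 and Ctla4 were thus 2 of 9 called higher in arm II GFP-negative cells, where 6.69% of all genes were called (1.98% higher). In GFP-positive cells Pdcd1 was 1 of 9, against 3.17% of all genes (0.923% higher). The medians of the 9 were 1.44 and 0.33, against -0.07 and -0.09 over all genes. Tigit (chromosome 16, 43648867 to 43664146, minus strand) was called by edgeR in neither state, and by DESeq2 in GFP-negative cells (adjusted p = 0.0153). It stood at 7.78 and 11.1 CPM in arm II against 0.368 and 1.48 CPM in arm I GFP-negative libraries (3.26 ± 1.10, edgeR adjusted p = 0.0848). Tox stood at 32.7 and 17.1 CPM in arm II against 13.8 and 6.97 CPM in arm I GFP-negative libraries (1.20 ± 0.52, not called). Havcr2 differed by -0.24 ± 0.24 between the arms in GFP-negative and by 0.33 ± 0.23 in GFP-positive cells, and Cd160 by 0.05 ± 0.61 in GFP-positive cells. Markers of other cells moved with the arm. The phagocyte sums were given above, 8 keratinocyte markers summed to 243 to 345 CPM in arm II against 1462 to 1743 CPM in arm I GFP-negative libraries, and Klrb1c stood at 30.6 and 44.6 CPM in arm II against 0.551 and 2.08 CPM in arm I. Foxp3, of regulatory T cells, which also carry CTLA-4, stood at 0 and 19.8 CPM in arm II GFP-negative libraries and at 0 in all other day 1 libraries. The 4 markers of regulatory and CD4 T cells, mostly by Il2ra, summed to 34.4 to 65.9 CPM in arm II and 152 to 154 CPM in arm I GFP-negative libraries, and to 199 to 231 and 287 to 310 CPM in GFP-positive ones. The part of these, and of the lower depth of arm II, in the Pdcd1, Ctla4 and Tigit values was not tested.

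**Figure D2:**
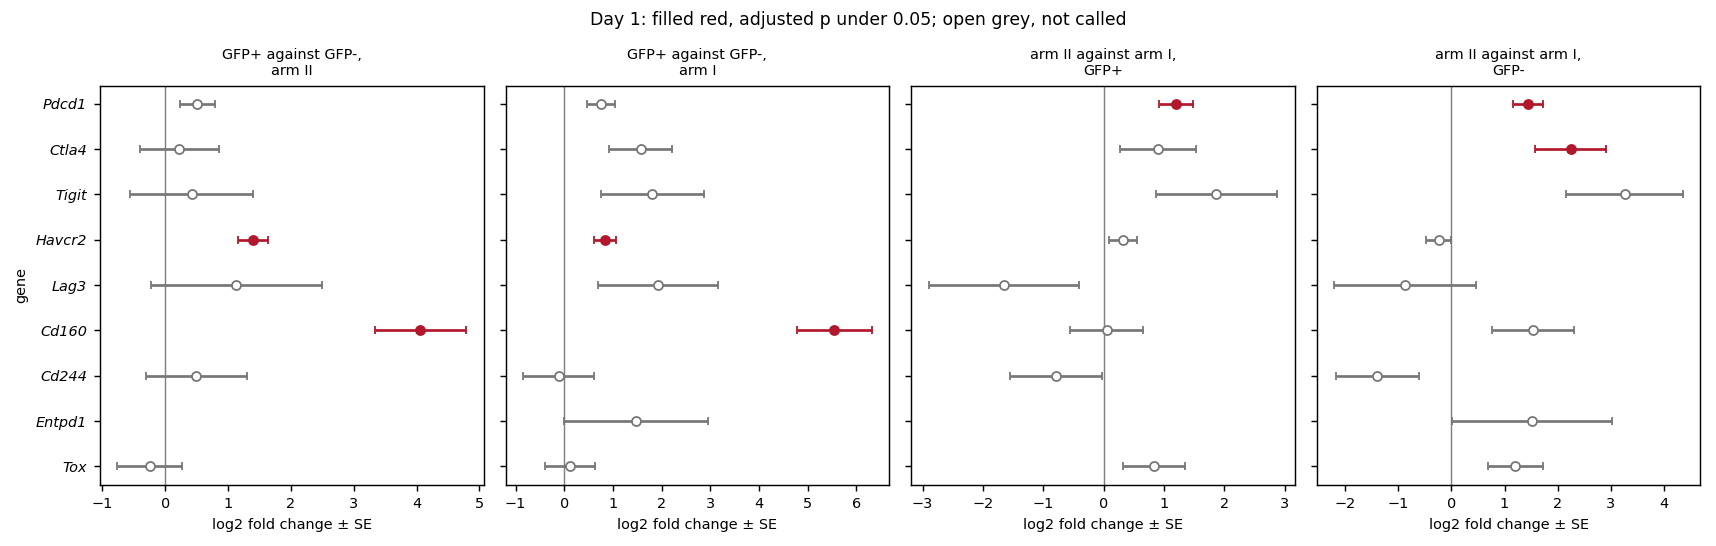
Log2 fold changes with their standard errors for each gene at day 1, GFP-positive against GFP-negative cells in arm II and in arm I, and arm II against arm I in both GFP states (2 libraries against 2 in each). Filled red points passed an adjusted p of 0.05 and open grey ones did not. Cd160 and Havcr2 are filled in both GFP comparisons and Pdcd1 in both arm comparisons. Entpd1 is left out where a set had no count.

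Set against day 0 acetone, day 1 cells of either GFP state had more Havcr2, Pdcd1 and Ctla4. These comparisons share the 3 day 0 acetone libraries, so they are not independent. Their day 1 side is the mean of the TA and acetone arms, while the day 0 side is acetone alone. The GFP-positive comparison also crosses the GFP sort, since all day 0 cells were GFP-negative. Day, treatment and, in that comparison, GFP state cannot be told apart. Havcr2 stood at 344 to 548 CPM in GFP-positive and 187 to 257 CPM in GFP-negative libraries, against 106, 108 and 155 CPM at day 0, and no day 1 library overlapped day 0. It was higher by log2 2.24 ± 0.19 in GFP-positive and 1.13 ± 0.19 in GFP-negative cells (edgeR adjusted p = 4.26e-08 and 0.000655). Pdcd1 stood at 92.5 to 243 CPM in GFP-positive and 34.9 to 185 CPM in GFP-negative libraries, against 49.1, 37.5 and 57.3 CPM at day 0. It was higher by 1.95 ± 0.23 in GFP-positive and 1.32 ± 0.23 in GFP-negative cells. By arm, the GFP-negative log2 difference was 2.04 in arm II and 0.60 in arm I, where it was not called (edgeR adjusted p = 0.250). All day 1 libraries except arm I GFP-negative A, at 34.9 CPM, were above day 0.

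Ctla4 stood at 16.2 to 41.8 CPM in GFP-positive and 5.88 to 36.9 CPM in GFP-negative libraries, against 0.204, 0.286 and 2.58 CPM at day 0, on 1, 2 and 9 counts. Every day 1 library was above day 0. It was higher by log2 5.16 ± 0.65 in GFP-positive and 4.26 ± 0.64 in GFP-negative cells. Cd160, with the day 1 values given above and 10.8, 6.16 and 1.15 CPM at day 0, was higher by 4.46 ± 0.58 in GFP-positive cells and differed by -0.35 ± 0.56 in GFP-negative cells. Tigit stood at 1.76 to 13.4 CPM in GFP-positive and 0.368 to 11.1 CPM in GFP-negative libraries, against 0, 1.00 and 0.573 CPM at day 0. It was higher by 3.64 ± 0.92 in GFP-positive cells (edgeR adjusted p = 0.00582) and not called in GFP-negative cells (2.52 ± 0.91, edgeR adjusted p = 0.107).

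Of the 9 genes 5 were called higher and none lower in GFP-positive cells, where 25.6% of all genes were called (10.8% higher), and 3 in GFP-negative cells, where 7.02% were called (3.12% higher). The medians of the 9 were 1.95 and 0.12, against -0.18 and -0.12 over all genes. Each arm's GFP-negative cells were also set against day 0, a choice made after seeing the data. In arm II Havcr2, Pdcd1, Tigit and Ctla4 were called (8.63% of all genes), and in arm I Havcr2 and Ctla4 (3.94%). Without arm II GFP-negative B the arm II calls of Havcr2 and Tigit were lost, and without day 0 acetone A, day 0 acetone B or arm I GFP-negative B the arm I call of Ctla4 was lost. Cd244 ranged from 2.87 to 10.7 CPM at day 1, against 13.2, 12.9 and 6.59 CPM at day 0, and was not called. Lag3, Entpd1 and Tox were not called either. Markers of other cells differed from day 0 as well. The phagocyte markers summed to 331 to 378 CPM in arm II and 729 to 886 CPM in arm I GFP-positive libraries, and to 50.8 to 85.7 and 900 to 934 CPM in GFP-negative ones, against 336 to 496 CPM at day 0. The neutrophil markers, of which 3 of 4 have rows, summed to 9.71 to 38.6 and 73.9 to 77.1 CPM in GFP-positive and to 9.92 to 11.5 and 79.2 to 82.6 CPM in GFP-negative libraries of arms II and I, against 1.72 to 10.7 CPM at day 0. The regulatory and CD4 T cell markers, with the day 1 sums given above, summed to 16.3 to 44.6 CPM at day 0. Those day 1 sums were mostly Il2ra and do not by themselves show regulatory or CD4 T cells. The part of these cells in the values above was not tested.

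In the day 0 TA and day 6 sets, Tigit and Ctla4 differed from day 0 acetone. Over the 4 sets, 2 of the 9 genes were called in a joint test, Tigit (edgeR adjusted p = 0.0110) and Ctla4 (0.0297), with 9.5% of all genes called. Tigit stood at 18.0 and 11.9 CPM in set K, 2.44 and 4.96 in set L, 0.649 and 2.71 in set M and 0 to 1.00 CPM in day 0 acetone. Set K was apart from the others, with a log2 difference from day 0 acetone of 4.82 ± 1.01, lost without set K A (edgeR adjusted p = 0.0527). Ctla4 stood at 4.30 and 7.11 CPM in set K, 2.44 and 5.41 in set L, 6.10 and 5.97 in set M and 0.204 to 2.58 CPM in day 0 acetone. It was called in set K (2.83 ± 0.72) and set M (2.90 ± 0.68) and not in set L (2.07 ± 0.70). The set K call was lost without day 0 acetone A or B or set K B, and the set M call without day 0 acetone A or B or either set M library (log2 difference 2.26 to 2.98 over these).

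Havcr2 was lower in set K, at 70.7 and 47.8 CPM, than in day 0 acetone (log2 -0.89 ± 0.23, edgeR adjusted p = 0.0320). Its lowest day 0 library was at 106 CPM, so the groups did not overlap. The call was lost without set K B, without day 0 acetone C and with a replicate block (edgeR adjusted p = 0.138). The counts of members were 3 in set K, none in set L and 1 in set M, against 3.53%, 0.897% and 4.56% of all genes. In set L 3 of the 9 had an unadjusted p under 0.05. Pdcd1 was above day 0 acetone in every library of sets K, L and M, at 66.7 to 97.7 CPM, and edgeR called it in none. In set M it was called by DESeq2 and with no filter on low counts (edgeR adjusted p = 0.0143), and in set L with no such filter (edgeR adjusted p = 0.0133). In set K the phagocyte markers summed to 57.2 to 122 CPM, against 336 to 496 CPM in day 0 acetone, and the NK markers to 21.0 to 37.1 against 0.573 to 4.07 CPM. Its libraries held 2560156 to 2952120 counts with 34.9% to 36.3% mitochondrial, against 3488476 to 6982296 counts with 24.9% to 31.5% in day 0 acetone. The part of these in the Havcr2 and Tigit values was not tested.

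At day 2 the subsets differed in Havcr2. In CD69+CD103+ cells it stood at 352 and 279 CPM, against 384 and 452 in set U, 202 and 209 in set V and 203 and 261 CPM in set W. Set U was the highest and sets V and W lay below CD69+CD103+ cells. It was the only one of the 9 called over the 4 subsets (edgeR adjusted p = 0.0231), with 1.21% of all genes called, and leaving out any library of set U or V ended the call. CD69+CD103+ cells against the mean of sets U, V and W gave no call among the 9, with 0.368% of all genes called. Cd244 was the one gene with an unadjusted p under 0.05, and DESeq2 called that 1. The median of the 9 was 0.28, against 0.07 over all genes, and the same with Cd244 at its bound. Against sets U, V and W singly edgeR called none of the 9, with 0.237%, 0.417% and 0.27% of all genes called, and 1, 3 and 1 of them had an unadjusted p under 0.05. DESeq2 called Havcr2 against set V (adjusted p = 0.0230).

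Cd244 (chromosome 1, 171559193 to 171609746, plus strand; Cd244a in GENCODE) stood at 0.954 and 1.84 CPM in day 2 CD69+CD103+ cells, against at most 0.660 CPM in sets V and W and no count in set U. A count of 0 in set U allows up to 0.344 CPM. Ly9 lies within this span on the opposite strand, and how strand was used in counting is not given. Only whole gene spans were compared, so it is not known whether exons of these 2 genes overlap. The part of Ly9 reads in the Cd244 values was not tested. The same holds for Tox with the antisense Gm11802.

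Ctla4 was at 535 and 682 CPM in day 2 CD69+CD103+ cells and at 634 to 791 CPM in sets U, V and W, and these ranges overlapped. Foxp3 stood at 13.2 and 27.4 CPM in CD69+CD103+ cells and at 0.624 to 20.9 CPM in the other subsets. Ctla4 in set V, with 0.624 and 6.33 CPM of Foxp3, was 642 and 726 CPM. The part of regulatory T cells in the day 2 Ctla4 values was not tested. Lag3 ranged from 26.0 to 78.6 CPM and Cd160 from 26.1 to 70.7 CPM over the 8 day 2 libraries.

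**Figure D3:**
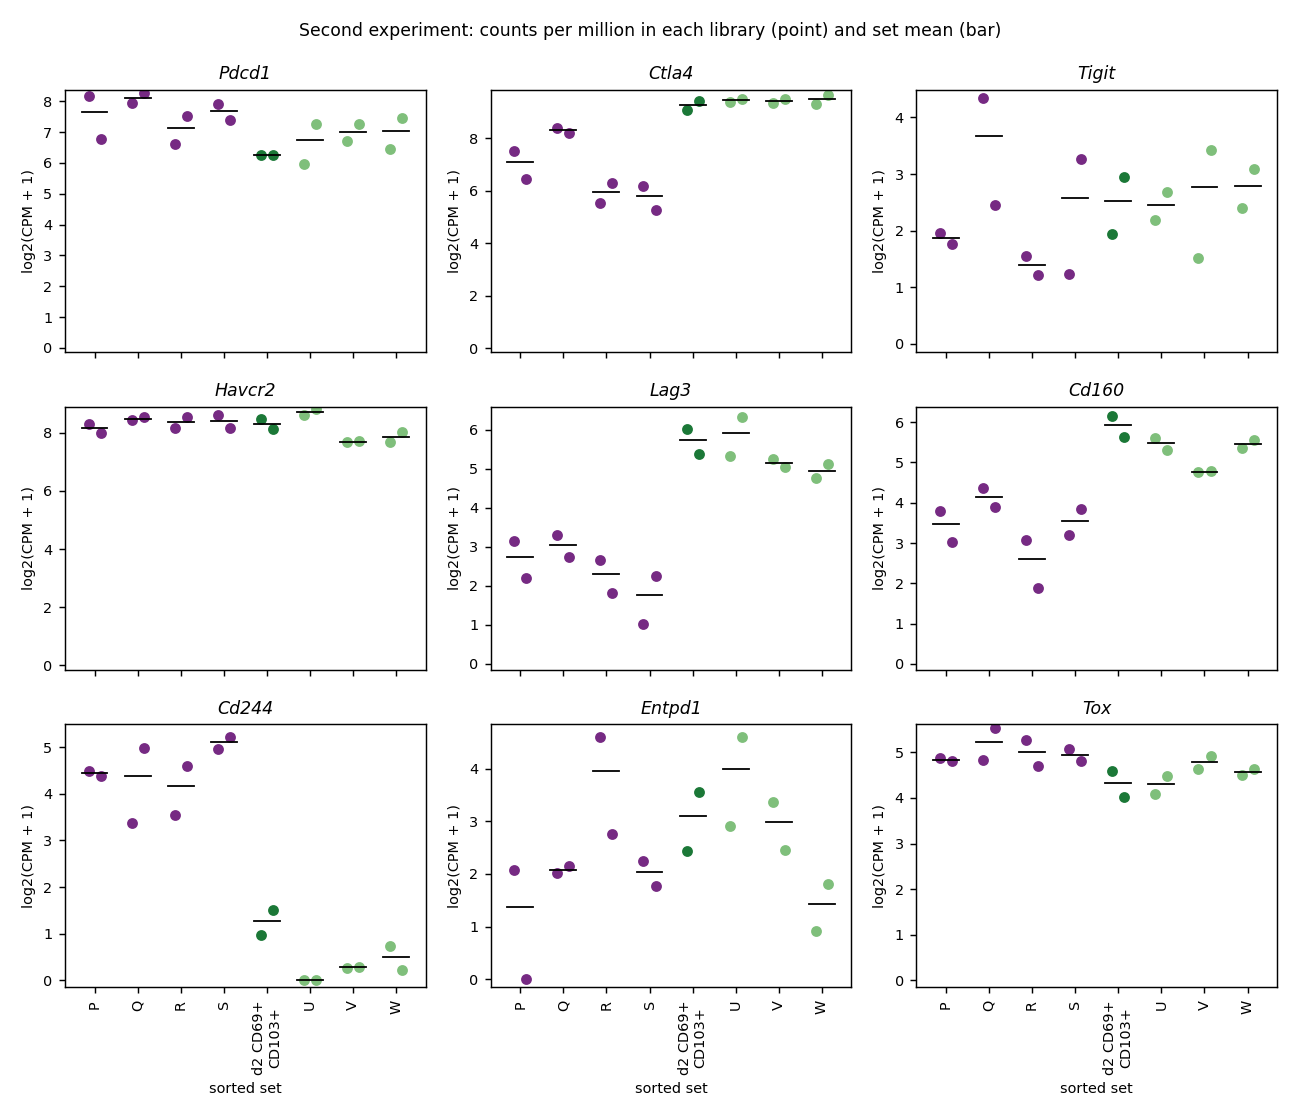
Level of each gene in every library of the second experiment, as log2(CPM + 1), by sorted set. Points are libraries and bars are set means (purple, day 11 and day 42 sets; dark green, day 2 CD69+CD103+; light green, other day 2 subsets). Ctla4, Lag3 and Cd160 are lower and Cd244 higher in all 8 late libraries than in the 8 day 2 libraries.

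TRM of day 11 and day 42 had less Ctla4, Lag3 and Cd160 and more Cd244 and Pdcd1 than day 2 CD69+CD103+ cells. The day 2 cells, also taken after DNFB, were labelled as given no treatment, and all late cells had received TA or acetone. Time and treatment therefore cannot be told apart here. Ctla4 stood at 37.3, 81.9 and 330 CPM in the late libraries (lowest, median and highest of 8), against 535 and 682 CPM at day 2. The groups did not overlap, and the log2 difference was -2.51 ± 0.20 (edgeR adjusted p = 1.57e-07). Lag3 (chromosome 6, 124904361 to 124911705, minus strand) stood at 1.02 to 8.84 CPM late, with a median of 4.55, against 63.3 and 40.6 CPM at day 2. Its difference was -3.51 ± 0.38 (edgeR adjusted p = 5.67e-06). Cd160 stood at 2.67 to 19.7 CPM late, with a median of 10.5, against 70.7 and 48.8 CPM at day 2, a difference of -2.61 ± 0.34 (edgeR adjusted p = 4.51e-05).

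Cd244 stood at 9.34 to 36.5 CPM late, with a median of 22.3, against 0.954 and 1.84 CPM at day 2. All 8 late libraries were above both day 2 libraries, by a log2 difference of 3.94 ± 0.75 (edgeR adjusted p = 0.00238). Without day 2 replicate 1 the call was lost (edgeR adjusted p = 0.0727). Its window holds GGAAA, as TTTCC, and TGANTCA once each.
Cd244, chr1:171558943-171559192, plus strand: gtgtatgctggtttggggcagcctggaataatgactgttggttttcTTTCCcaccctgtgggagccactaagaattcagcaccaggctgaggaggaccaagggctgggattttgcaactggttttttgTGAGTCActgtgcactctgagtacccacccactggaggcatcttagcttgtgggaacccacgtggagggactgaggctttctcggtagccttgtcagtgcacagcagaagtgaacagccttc
Set U had no count of Cd244, and the means of the late sets P, Q, R and S were 49.1- to 97.1-fold above the 0.344 CPM that 3 counts over set U would give.

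Pdcd1 stood at 97.5 to 308 CPM late, with a median of 211, against 75.1 and 76.3 CPM at day 2. The difference was 1.37 ± 0.36 (edgeR adjusted p = 0.0253), and it was lost when either day 2 library, either set Q library, set R 2 or set S 1 was left out, with log2 differences of 1.25 to 1.40. Against the mean of all 4 day 2 subsets, a comparison chosen after seeing the data, it was 0.92 ± 0.21 (edgeR adjusted p = 0.00485) and the libraries overlapped, since the day 2 subsets reached 177 CPM. Against CD69+CD103+ cells alone, 2 of the 9 were higher and 3 lower late, with 8.21% of all genes called (3.33% higher, 4.89% lower). The median of the 9 was -0.23, against -0.07 over all genes. Against all 4 subsets the same 5 genes were called, with 19.1% of all genes called and a median of -0.30, against -0.01 over all genes. Against CD69+CD103+ cells, Havcr2 (0.02 ± 0.15), Tigit (-0.23 ± 0.85), Entpd1 (-0.95 ± 0.82) and Tox (0.68 ± 0.34) were not called.

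Other markers differed between day 2 and the late cells as well. Foxp3 was at 0 in 7 of 8 late libraries, with a highest value of 0.300 CPM, against 13.2 and 27.4 CPM at day 2. The 4 markers of regulatory and CD4 T cells summed to 163 to 215 CPM in set P, 106 to 142 in set Q, 107 to 139 in set R and 138 to 145 in set S, against 301 to 332 CPM at day 2, most of it Il2ra. Of 4 NK markers 3 have rows and 2 had counts. They summed to 7.21 to 9.45 CPM in set P, 31.8 to 94.4 in set Q, 3.37 to 4.29 in set R and 6.13 to 12.2 in set S, against 11.6 to 16.1 CPM at day 2. Within that sum Klrb1c was higher late, at 2.70 to 90.9 against 0.0878 and 0.694 CPM, and Eomes was lower. Mast cell markers summed to 0 to 49.5 CPM late, highest in set Q, against 13.4 to 21.6 CPM at day 2. All 5 of these markers had counts in set Q. Only 1 had counts in each of sets P, R and S and in the day 2 cells. NK and mast cells can carry 2B4, and their part in the Cd244 values, like that of regulatory T cells in the Ctla4 values, was not tested.

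**Figure D4:**
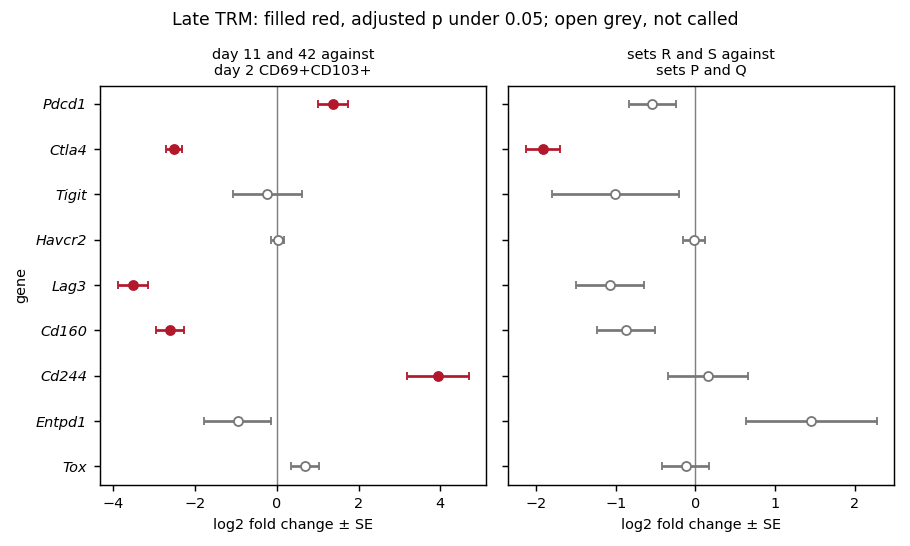
Log2 fold changes with their standard errors for day 11 and day 42 TRM against day 2 CD69+CD103+ cells (8 libraries against 2), and for sets R and S against sets P and Q (4 against 4). Filled red points passed an adjusted p of 0.05 and open grey ones did not. In the comparison with day 2, Pdcd1 and Cd244 lie right of 0 and Ctla4, Lag3 and Cd160 left of it. Ctla4 is the one filled point between the late sets.

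Among the late sets only Ctla4 was called. It stood at 182 and 86.2 CPM in set P, 330 and 296 in set Q, 44.8 and 77.6 in set R and 71.1 and 37.3 CPM in set S. Set Q was the highest, set P next, and sets R and S overlapped at the low end. The joint test gave an edgeR adjusted p of 5.56e-05, with 2.12% of all genes called. Of the 3 ways to split the 4 sets in pairs, sets R and S against P and Q gave a log2 difference of -1.91 ± 0.21 for Ctla4 (edgeR adjusted p = 4.99e-05), at means of 57.7 CPM in sets R and S and 223 CPM in sets P and Q. That was 1 of the 9, with 1.67% of all genes called. In the other splits edgeR called none of the 9, with 0.474% and 0.4% of all genes called. For Ctla4, sets Q and R against P and S differed by log2 0.83 ± 0.21 (edgeR adjusted p = 0.106). That difference was called by DESeq2, with no filter on low counts (edgeR adjusted p = 0.000335) and without set P 1, set R 1 or set S 1, at log2 differences up to 1.10. The headers do not state which split is treatment, which is day and which is their interaction. Lag3 (-1.07 ± 0.43) and Cd160 (-0.87 ± 0.36) had unadjusted p-values under 0.05 in sets R and S against P and Q and were not called.

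The order of mean levels over the 8 sets of each experiment differed between genes. In the first experiment Pdcd1 was highest in arm II GFP-positive cells (234 CPM), then in arm II GFP-negative cells (176 CPM), with the libraries of these sets apart from each other and from the rest. Its lowest sets, set K, arm I GFP-negative and day 0 acetone, each overlapped the next. Ctla4 was highest in the same arm II sets, which overlapped, and lowest in day 0 acetone. In the second experiment the 4 day 2 sets of Ctla4 overlapped their neighbours at means of 608 to 713 CPM, and sets Q (313 CPM) and P (134 CPM) were apart from their neighbours. For Tox, in the first experiment each of its sets overlapped the next, from 24.9 CPM in arm II GFP-negative to 10.1 CPM in arm I GFP-positive cells. Tigit was highest in set K (14.9 CPM) and in set Q (11.8 CPM), both of which overlapped the next set. Entpd1 stayed at or below 4.58 CPM in every library of the first experiment and reached 23.4 CPM in 1 set U and 23.2 CPM in 1 set R library, each far above its replicate.

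Lists of the wider pathway are given beside the share of all genes called, which was 12.1% over both arms in the GFP comparison (5.59% higher). In the first experiment 9 of 15 ligand genes of these receptors were tested, and 2 were higher and 2 lower in GFP-positive cells over both arms. Pdcd1lg2, the PD-1 ligand PD-L2, was higher at 197 against 62.2 CPM (1.79 ± 0.29). Lgals9, the TIM-3 ligand galectin-9, was lower at 43.7 against 132 CPM (-1.67 ± 0.21), as was Cd48, the ligand of 2B4, at 67.2 against 135 CPM (-0.91 ± 0.14). The part of phagocytes, whose markers also differed as given above, in these ligand values was not tested. A list of 17 genes held other inhibitory receptors and the enzyme gene Nt5e. Of the 9 tested, Adora2a was higher, and Nt5e, Cd96 and Lair1 were lower. Nt5e, which completes the breakdown of ATP that CD39 begins, stood at 11.6 against 38.5 CPM.

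Of 13 signalling partners of the receptor tails tested, 4 were higher and 3 lower in GFP-positive cells, against the same 12.1% of all genes called. Sh2d2a, a T cell adaptor gene, was higher by 1.35 ± 0.13 and Fyn, a Src family kinase gene, by 1.00 ± 0.17, while Pag1, an adaptor that recruits Csk, was lower (-1.25 ± 0.22). Of 17 transcription factors linked with checkpoint receptor expression tested, 7 were higher and none lower, where 5.59% of all genes were called higher. Nr4a1 and Nr4a2 were among them, of which Nr4a1 describes the sort, as were Nfatc1 (1.79 ± 0.24) and Irf4 (3.71 ± 0.51, at 45.1 against 3.62 CPM). None of 4 costimulatory counterparts tested was called.

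In day 11 and day 42 TRM against day 2 CD69+CD103+ cells, 9 ligand genes were tested, with 2 higher and 1 lower, where 8.21% of all genes were called (3.33% higher, 4.89% lower). Cd86, the ligand that CTLA-4 shares with CD28, was lower at 7.28 against 28.0 CPM (-2.72 ± 0.39), and Pvr, the TIGIT ligand, higher at 98.3 against 34.9 CPM (1.45 ± 0.24). The part of phagocytes in these values was not tested. Of 13 genes tested from the list of other inhibitory receptors and Nt5e, Cd96 was higher and Adora2a, Btla and Klrg1 were lower. Of 18 transcription factors tested, 4 were higher and 4 lower, among them Nr4a1 (1.63 ± 0.16) and Tbx21 (2.62 ± 0.46) higher and Bach2 (-4.06 ± 0.65) lower. The late values of Bach2 and Cd86 average sets that differed among themselves, as given next, so they do not describe each late set. In sets R and S against P and Q, where Ctla4 was lower and 1.67% of all genes were called, Irf4 was lower (-2.09 ± 0.29), Cd86 was lower (-3.10 ± 0.45) and Bach2 (7.16 ± 0.90) and Tcf7 (2.74 ± 0.39) were higher.

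The genes most like each receptor were taken by the smaller of its Pearson correlations of log2(CPM + 1) over the 17 libraries of the first and the 16 of the second experiment, among 11149 genes that passed the filter in both. These are descriptions, since libraries of a set share a sort and genes of a library share its depth. Ctla4 was most like Gpr18 (0.87), Zfp52 (0.835) and Srgn (0.80). Cd160 was most like Sla (0.83), Nrn1 (0.78) and Pou2f2 (0.78), and Pdcd1 like Prdx6 (0.76), Sod1 (0.76) and Sertad1 (0.75). Havcr2 was most like Mdfic (0.72), Xcl1 (0.69) and Nedd9 (0.69), Cd244 like Raph1 (0.74), Adora3 (0.68) and Calu (0.66), and Tox like Tprgl (0.71), Gltscr2 (0.69) and Ubald1 (0.66). Lag3 was most like Rbm3 (0.70), and Tigit and Entpd1, at a few CPM in most sets, had none above 0.655.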

How the data were processed

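RNA of sorted CD8 T cells was counted per gene by the authors, and the deposited tables hold raw counts, with 17 and 16 libraries. The submitters' processing notes name the genome GRCm38 and the tools BWA 0.7.15, HTSeq and bcl2fastq 2.2; collapsing of molecular identifiers and use of strand are not given in the sources used here. Libraries were grouped by the labels and, where headers could not be matched to a single label, by header code (arms I and II, sets K to W). From the deposited counts, CPM were computed per library total. Each experiment was fitted once with edgeR 4.0.16 (R 4.3.3; TMM, filterByExpr, robust quasi-likelihood F test) with 1 mean per set, leaving 11588 and 12236 genes, and p-values were Benjamini-Hochberg adjusted over these, with a threshold of 0.05. The standard error is the log2 fold change divided by the root of F. The steps were tested on simulated data. The genes and lists were chosen with earlier results of these data known. Genes were named as members, as members of the listed pathway genes that passed the test, or as the 3 most alike. Alternatives were median-of-ratios size factors, no filter, DESeq2 1.42.0, mitochondrial transcripts left out, a replicate block and each library left out. Gene coordinates are from GENCODE and promoter windows from RefSeq; 7 of the 9 genes matched a window. Depth limits the rarer genes: 3 counts over the arm II GFP-positive libraries correspond to 0.505 CPM. Such bounds cover the counting error of the set without counts only.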

Additional observations from a re-analysis of the deposited data

How the results depend on the processing

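No called result changed sign under any alternative run. Median-of-ratios size factors and leaving out mitochondrial transcripts moved none of the counts of genes called in the main comparisons. With no filter on low counts, 4 genes were called for the day 0 and day 6 sets, against 2, 1 for day 2 CD69+CD103+ cells against the other subsets, against 0, 2 over the day 2 subsets, against 1, and 2 over the late sets, against 1. DESeq2 gave 4, 1 and 2 for the first 3 of these. Smaller shifts named other genes: between the arms in GFP-negative cells DESeq2 added Tigit and no filter added Cd160 (edgeR adjusted p = 0.0428), and in day 1 GFP-negative cells against day 0 DESeq2 added Tigit (adjusted p = 0.0389). The cause was not tested. Leaving out each library in turn gave 1 to 2 for GFP-positive against GFP-negative cells of arm I, 0 to 1 between the arms in GFP-negative cells, 0 to 0 between them in GFP-positive cells, 1 to 3 for the day 0 and day 6 sets, 0 to 1 over the day 2 subsets and 3 to 5 for late against day 2 cells; each has fewer samples. With a replicate block the GFP comparison over both arms kept a count of 3. Same-letter libraries did not deviate together from their set means over all genes tested (56 pairs, r of -0.0901 to 0.0584). In a set of 2 libraries these deviations are equal and opposite, so the pairs are not independent. The check cannot exclude that same-letter libraries share an origin. The block changed set L, where Ctla4 was called, and set K, where Havcr2 was not. No paired analysis was possible in the second experiment because its columns carry no replicate letters. With 2 libraries in most sets, and few counts for Lag3, Tigit, Entpd1 and, at day 2, Cd244, small differences were not detectable.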
